A study of Homo sapiens with 16 samples.

Results

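The genes described here are 10 NF-kB-induced negative regulators and survival factors, TNFAIP3, TNIP1, ZC3H12A, CYLD, BIRC2, BIRC3, TRAF1, IER3, TNFAIP2 and IKBKE, out of 59428 genes in the count table. They were taken by gene symbol, and all 10 are in the table. Several of them were chosen on their fold change with olaparib in OVCAR3, where they rose, and which ones is not recorded. Their values in OVCAR3 are therefore given as a description without a test, as are the comparisons that share OVCAR3 libraries. A p-value is given for them only in UWB1.289, whose libraries the stated rule did not use, though earlier results of both lines were known when the genes were put together.

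The libraries come from OVCAR3, an ovarian carcinoma line with intact BRCA1, and UWB1.289, an ovarian carcinoma line with a deleterious BRCA1 mutation. Olaparib is a PARP inhibitor, and PARP enzymes help to mend breaks in DNA strands. OVCAR3 received 7.5 µM and UWB1.289 received 3.5 µM olaparib in DMSO for 96 h, and the control cells of each line received DMSO alone for the same time. Each of the 4 groups holds 4 replicates. Each line was grown in its own medium, and each BRCA1 status is represented by 1 line, so the effects of dose, medium, BRCA1 status and line cannot be told apart. The labels do not say whether replicates are separate cultures, so p-values measure the spread between these samples, which may be technical.

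NF-kB is a family of transcription factors that IkB proteins hold inactive until a receptor such as the TNF receptor signals through ubiquitin chains and IKK kinases. Among its target genes are some that end the signal, by removing ubiquitin chains or by destroying the transcripts of inflammatory genes, and others that keep cells alive while the signal lasts. In carcinoma cells the same pathway also responds to DNA damage.

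Reads came from the 3' ends of polyadenylated transcripts, and levels are given as CPM, that is counts scaled to the size of each library, here with TMM factors over the 16 libraries. Totals ranged from 5599571 to 7730228 counts. No 2 libraries of a group were identical. PAX8, MUC16, EPCAM, KRT7, KRT8 and KRT18, which mark serous ovarian carcinoma and epithelium, were present in every library. WT1 was at 0 in UWB1.289 with DMSO and had 4 counts in all in UWB1.289 with olaparib. The summed level of the 7 epithelial markers lay between 3954 and 4225 CPM in OVCAR3 with DMSO, between 2471 and 2764 CPM with olaparib, between 7367 and 7984 CPM in UWB1.289 with DMSO and between 5784 and 7120 CPM with olaparib. The markers did not move alike. In OVCAR3 the mean of KRT18 went from 1796 to 884 CPM with olaparib and that of KRT8 from 834 to 401 CPM. KRT7 went from 346 to 394, PAX8 from 445 to 427 and EPCAM from 315 to 277 CPM. WT1 went from 121 to 75.4 and MUC16 from 210 to 139 CPM. In UWB1.289 KRT18 went from 4203 to 3180 CPM, KRT7 from 1415 to 1254 CPM and KRT8 from 1121 to 912 CPM, while PAX8, EPCAM and MUC16 were higher on average with the drug. The 5 leukocyte markers summed to 1.93 to 2.90 CPM and 1.99 to 4.04 CPM in OVCAR3 without and with olaparib. In UWB1.289 they summed to 7.66 to 11.6 CPM without and 15.5 to 19.7 CPM with the drug, mostly from PTPRC and CD14, with CD3E at 0 in all 8 libraries and LYZ at 1 count in all. The 3 fibroblast markers summed to 21.7 to 30.4 CPM and 30.4 to 39.0 CPM in OVCAR3 and to 3.62 to 3.96 CPM and 3.22 to 5.95 CPM in UWB1.289, with COL3A1 at 0 in all 16 libraries. The 3 endothelial markers stayed at or below 10.1 CPM in all libraries. The part of these markers in the results was not tested.

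For sequence, 9 of the 10 genes have entries in the RefSeq promoter table (GRCh38.p14, 250 bases before to 50 after a start site), with 15 start sites. At least 1 match to the kappaB consensus on either strand was found in 5 of these 15 windows, beside 11.3% of all 35116 windows. Counted by gene, 4 of the 9 genes (TNFAIP3, TNIP1, BIRC3 and CYLD) held a match, beside 13.3% of 27305 genes. The members were chosen as NF-kB-induced genes, and a gene with more windows has more places for a match. Nothing is therefore read from the difference between these shares. The AP-1 site TGAGTCA, in 4.95% of all windows, was in none of the 15. The stretches of TNFAIP3, TNIP1, BIRC3 and CYLD are shown because they hold the matches, and the levels of these genes are compared below. Each is a stretch of 80 bases before the start site with the kappaB matches in capitals, for TNFAIP3 from chr6:137867163-137867242 (plus strand), for TNIP1 from chr5:151081035-151081114 (minus strand), for BIRC3 from chr11:102317282-102317361 (plus strand) and for CYLD from chr16:50741862-50741941 (plus strand).
TNFAIP3: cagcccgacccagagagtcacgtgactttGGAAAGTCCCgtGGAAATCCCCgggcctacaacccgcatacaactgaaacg
TNIP1: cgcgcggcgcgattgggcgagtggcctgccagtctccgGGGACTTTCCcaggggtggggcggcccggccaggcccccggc
BIRC3: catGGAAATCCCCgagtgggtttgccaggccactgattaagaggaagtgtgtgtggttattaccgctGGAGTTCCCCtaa
CYLD: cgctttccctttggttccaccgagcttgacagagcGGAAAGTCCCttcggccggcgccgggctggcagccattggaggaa
TNFAIP3 and BIRC3 each held 2 matches. Those of TNFAIP3 began at -67 and -55 from the start site, and those of BIRC3 at -199 and -135. TNIP1 held 1 match in 1 of its start site windows, beginning at -42. CYLD held a match in 2 of its 3 windows, the one shown, beginning at -189, and another that begins at the start site of its window and is not shown. A match is a description of the letters and does not show that a factor binds there.

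The first question was whether these genes changed with olaparib in UWB1.289. TNFAIP3, BIRC3, ZC3H12A and TNFAIP2 rose by more than 2-fold, TNIP1, IER3, IKBKE and BIRC2 rose by less, and CYLD did not pass the test. A gene was called at an adjusted p below 0.1 (edgeR's quasi-likelihood test, Benjamini-Hochberg over all genes tested), a change of over 2-fold and an average normalized count above 10. Of the 10 genes 9 passed the filter on low counts, and 4 of these were called up, beside 1.93% of the 12748 genes tested. With no limit on the fold, 8 of the 9 had an adjusted p below 0.1 and were higher, beside 7.77% of all genes. Among these 8, IKBKE and BIRC2 went above 0.1 in several fits with 1 library left out, as given below. The median log2 fold change of the 9 genes was 0.80, and that of all genes tested was -0.004. In bulk RNA a change in the number of cells that express a gene and a change in the level per cell cannot be told apart.

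In OVCAR3, 9 of the 10 genes were higher with olaparib and TRAF1 was lower, with a median log2 fold change of 1.19 beside -0.01 for all genes. The same limits were passed upward by 6 genes, BIRC3, TNFAIP3, IER3, ZC3H12A, TNFAIP2 and IKBKE, beside 2.90% of the 13031 genes tested. Since this contrast was used to choose members, nothing is read from the difference between these shares. BIRC3 had at most 4 counts in any control library. It passed the filter on low counts through its olaparib libraries and had to differ. The libraries with olaparib lay wholly above those with DMSO for 7 genes, beside 12.4% of all genes. In UWB1.289 this was so for 7 of the 9 genes tested and for TRAF1, beside 7.73% of the genes tested.

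**Figure D1:**
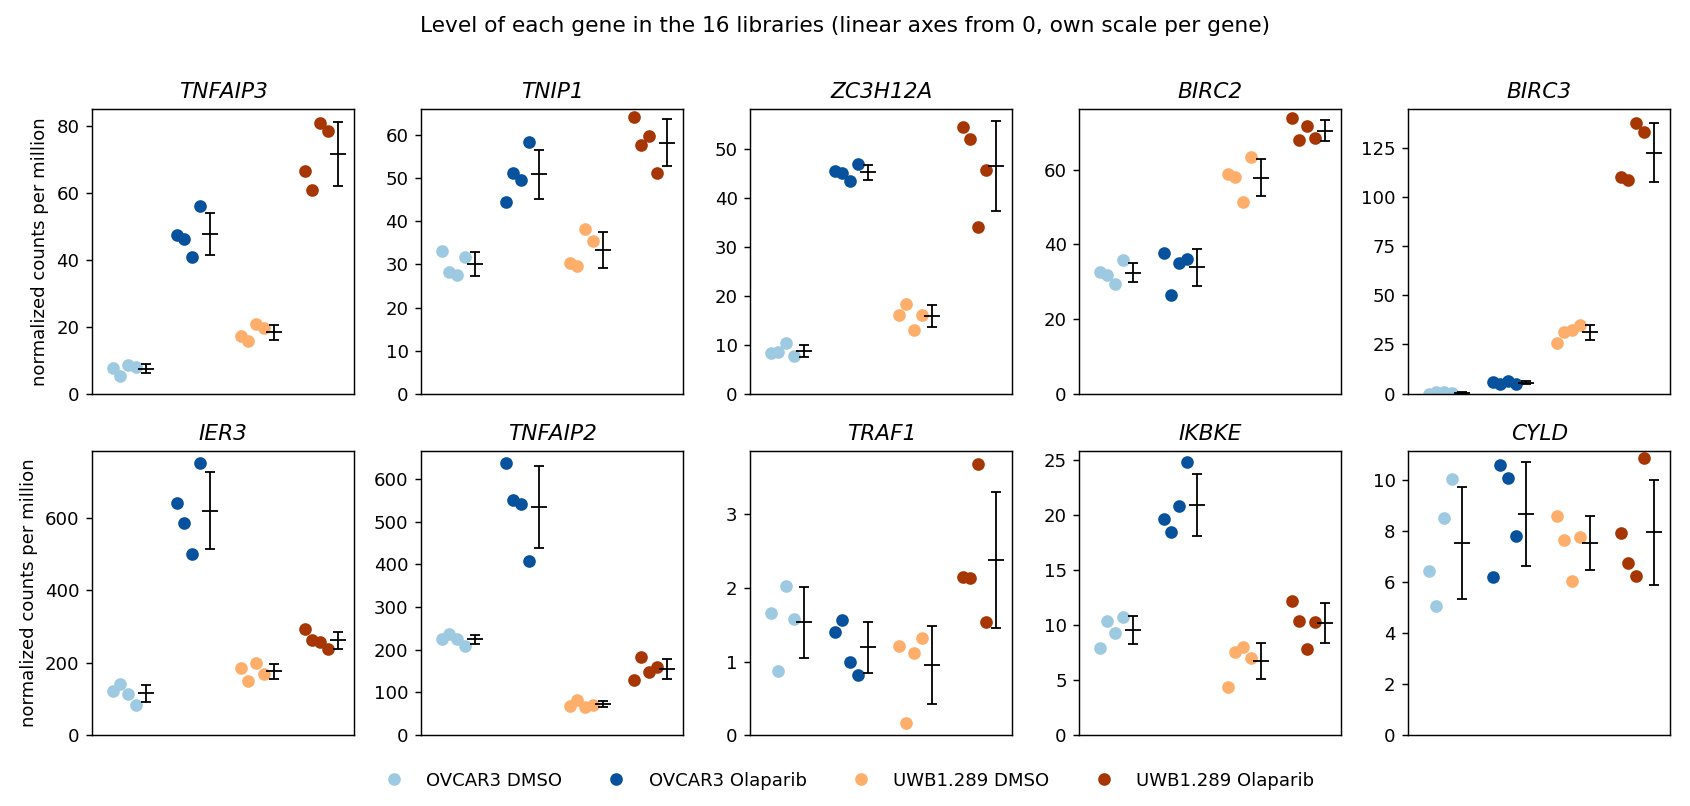
Level of each of the 10 genes in CPM (vertical axes, linear from 0, with a scale of their own) in the 4 libraries of each group; points are libraries, and the black mark and bar are the mean and 1 SD (n = 4). For TNFAIP3, BIRC3, IER3 and TNFAIP2 none of the 4 groups overlaps its neighbour in level, while for CYLD and TRAF1 all neighbouring groups overlap.

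TNFAIP3 encodes A20, an enzyme that edits ubiquitin chains and restrains NF-kB signalling (chr6:137867214-137883314, plus strand, hg38). In UWB1.289 its level was 17.3, 15.7, 20.7 and 19.5 CPM with DMSO and 66.7, 61.0, 81.0 and 78.6 CPM with olaparib. All 4 treated libraries were above all 4 controls, with a mean of 18.3 ± 2.26 CPM (SD, n = 4) against 71.9 ± 9.55 CPM (SD, n = 4). The log2 fold change was 1.97 (SE 0.122, adjusted p = 6.34e-11 in edgeR).

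In OVCAR3, TNFAIP3 stood at 7.77, 5.43, 8.54 and 8.03 CPM with DMSO and at 47.4, 46.4, 41.0 and 56.3 CPM with olaparib. The groups did not overlap here either, and the log2 fold change was 2.67 (SE 0.148). The order of the levels was OVCAR3 with DMSO, UWB1.289 with DMSO, OVCAR3 with olaparib and UWB1.289 with olaparib, and each group lay clear of the next. TNFAIP3 shares 1020 bases with the antisense gene WAKMAR2, which had 244 counts over all libraries beside 3746 for TNFAIP3. The strand setting of the counting is not stated, so reads of the pair may have been mixed.

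TNIP1 encodes ABIN1, which binds A20 and ubiquitin chains (chr5:151029945-151093577, minus strand). Its level in UWB1.289 was 30.4, 29.5, 38.1 and 35.4 CPM with DMSO and 64.2, 57.7, 59.9 and 51.2 CPM with olaparib, so the groups were apart. It rose by 0.80 on the log2 scale (SE 0.110, adjusted p = 2.48e-05 in edgeR), below the 2-fold line. In OVCAR3 the values were 33.1, 28.2, 27.5 and 31.8 CPM against 44.5, 51.4, 49.5 and 58.4 CPM, a log2 fold change of 0.76 (SE 0.110). The groups of the 2 lines overlapped both without and with the drug. The difference of the effect between the lines, UWB1.289 minus OVCAR3, was 0.04 (SE 0.157) on the log2 scale.

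ZC3H12A encodes Regnase-1, an endoribonuclease that degrades transcripts of inflammatory genes (chr1:37474580-37484377, plus strand). In UWB1.289 the 4 control libraries held 16.1, 18.4, 12.9 and 16.1 CPM and the 4 treated ones 54.5, 52.1, 34 and 45.8 CPM. The treated libraries were the higher ones throughout, and replicate 3 was the lowest of each group. The log2 fold change was 1.55 (SE 0.146, adjusted p = 8.07e-08 in edgeR). In OVCAR3 the values rose from 8.27, 8.58, 10.4 and 7.60 CPM to 45.5, 45.1, 43.4 and 47.0 CPM, a log2 fold change of 2.38 (SE 0.127). The lines started apart without drug, at 8.72 ± 1.21 CPM in OVCAR3 and 15.9 ± 2.23 CPM in UWB1.289 (SD, n = 4 each), and overlapped with olaparib, at 45.3 ± 1.48 CPM and 46.6 ± 9.16 CPM.

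CYLD encodes a deubiquitinase that acts on the same signalling chains as A20 (chr16:50742050-50801935, plus strand). Its level in UWB1.289 was 8.59, 7.68, 6.07 and 7.79 CPM with DMSO and 7.93, 6.76, 6.26 and 10.9 CPM with olaparib, and the groups overlapped. The log2 fold change was 0.08 (SE 0.211, adjusted p = 0.862 in edgeR), with a 95% interval from -0.35 to 0.52, which leaves room for a small rise or fall. In OVCAR3 the levels were 6.45, 5.08, 8.54 and 10.04 CPM against 6.22, 10.6, 10.1 and 7.81 CPM. CYLD held 829 counts over the 16 libraries, the fewest of the 10 genes after TRAF1, and all neighbouring groups in its order of levels overlapped. An antisense gene without a row of its own in the counts overlaps CYLD over 18077 bases.

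BIRC2 and BIRC3 encode cIAP1 and cIAP2, ubiquitin ligases that join the TNF receptor complex and protect cells from death. They lie close together on chromosome 11 on the plus strand, BIRC3 at chr11:102317484-102339403 and BIRC2 at chr11:102347211-102378670, with 7807 bases between them, in which 1 other annotated gene starts. The 2 genes differed in what was measured. BIRC3 had 25.6, 31.2, 32.4 and 35.1 CPM in UWB1.289 with DMSO and 110, 109, 138 and 133 CPM with olaparib. Every treated library lay above every control, and the log2 fold change was 1.98 (SE 0.112, adjusted p = 1.51e-11 in edgeR).

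BIRC2 had 58.8, 57.9, 51.2 and 63.4 CPM in the same controls and 73.8, 67.8, 71.7 and 68.4 CPM with olaparib. The groups were apart but close, and the log2 fold change was 0.28 (SE 0.0931, adjusted p = 0.0578 in edgeR). This adjusted p went above 0.1 when 1 library was left out, to 0.102, 0.119 and 0.169 without DMSO replicate 1, 2 or 3 and to 0.132 without olaparib replicate 3, and it was 0.134 without the filter on low counts. With the replicate numbers as a block it was 0.0328.

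In OVCAR3 BIRC3 was close to the lower limit of detection. It had 0, 4, 4 and 4 counts with DMSO and 38, 32, 44 and 36 counts with olaparib, that is 0, 0.700, 0.579 and 0.574 CPM against 5.91, 4.99, 6.26 and 4.93 CPM. The fitted log2 fold change of 3.51 (SE 0.417) is the largest among the 10 genes and has the largest error, since it rests on 12 control counts. BIRC3 passed the filter on low counts here through the olaparib libraries, so it had to differ. BIRC2 stood at 32.6, 31.9, 29.4 and 35.9 CPM in these controls and at 37.8, 26.5, 35.0 and 36.0 CPM with the drug, a log2 fold change of 0.07 (SE 0.121), and its groups overlapped.

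The ratio of both genes within a library does not depend on the scaling. For each 100 BIRC2 counts, UWB1.289 libraries held 43.6 to 63.2 BIRC3 counts with DMSO and 149 to 194 with olaparib. OVCAR3 libraries held 0 to 2.20 BIRC3 counts per 100 BIRC2 counts with DMSO and 13.7 to 18.8 with olaparib. The 4 ranges do not overlap. An antisense gene overlaps BIRC3 over 11103 bases and has no row of its own in the counts used here.

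TRAF1 encodes an adaptor that links cIAP proteins to TNF receptors (chr9:120902393-120929173, minus strand). It was the lowest member in count, with 8, 1, 7 and 10 counts in UWB1.289 with DMSO and 13, 12, 23 and 10 with olaparib, and it did not pass the filter on low counts in that line. As levels these are 1.21, 0.167, 1.12 and 1.32 CPM against 2.15, 2.14, 3.69 and 1.53 CPM, which do not overlap, though the highest control and the lowest treated library both held 10 counts. Fitted without the filter, the log2 fold change was 1.26 (SE 0.459, adjusted p = 0.0913 in edgeR), which passed all 3 limits of a call. The average count of TRAF1 in that fit was 10.6, close to the limit of 10, and DESeq2 did not call it. In OVCAR3 it had 10, 5, 14 and 11 counts with DMSO and 9, 10, 7 and 6 with olaparib, with a log2 fold change of -0.38 (SE 0.405) and overlapping groups. At this depth no difference was detectable there.

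IER3 is an immediate early gene whose product affects cell survival under stress (chr6:30743199-30744548, minus strand). In UWB1.289 it stood at 186, 148, 198 and 170 CPM with DMSO and at 294, 261, 256 and 237 CPM with olaparib. The groups were apart, and the log2 fold change was 0.58 (SE 0.0918, adjusted p = 1.69e-04 in edgeR), below the 2-fold line. In OVCAR3 it went from 122, 140, 115 and 84.0 CPM to 641, 585, 500 and 751 CPM, a log2 fold change of 2.43 (SE 0.131). OVCAR3 thus had the lowest level without drug and the highest with it, and UWB1.289 lay between these in both conditions. The difference of the effect between the lines was -1.85 (SE 0.171) on the log2 scale, the largest in size of the 10 genes.

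TNFAIP2 is a gene first described as induced by TNF (chr14:103121476-103137439, plus strand). In UWB1.289 its level was 68.4, 82.3, 67.0 and 70.9 CPM with DMSO and 128, 182, 149 and 161 CPM with olaparib. All treated libraries were above the controls, and the log2 fold change was 1.11 (SE 0.104, adjusted p = 8.45e-08 in edgeR). In OVCAR3 the values were 225, 237, 225 and 209 CPM against 638, 552, 543 and 407 CPM, a log2 fold change of 1.26 (SE 0.102). It is the member whose OVCAR3 controls stood above even the treated UWB1.289 libraries.

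IKBKE encodes IKK epsilon, a kinase related to the IKK complex that acts in both NF-kB and interferon signalling (chr1:206470476-206496889, plus strand). In UWB1.289 it stood at 4.37, 7.51, 7.98 and 7.0 CPM with DMSO and at 12.2, 10.3, 7.86 and 10.3 CPM with olaparib. The lowest treated library lay within the controls. The log2 fold change was 0.60 (SE 0.210, adjusted p = 0.0767 in edgeR). That adjusted p rose above 0.1 without DMSO replicate 1, 2 or 4 (0.227, 0.103 and 0.129) and without olaparib replicate 1, 2 or 4 (0.174, 0.105 and 0.150), and it was 0.127 with DESeq2. With the replicate numbers as a block it was 0.0659. In OVCAR3 the values were 7.94, 10.3, 9.27 and 10.8 CPM against 19.6, 18.4, 20.8 and 24.8 CPM, with a log2 fold change of 1.13 (SE 0.154) and no overlap. The antisense gene IKBKE-AS1, which has no row in the counts, overlaps IKBKE over 5774 bases.

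**Figure D2:**
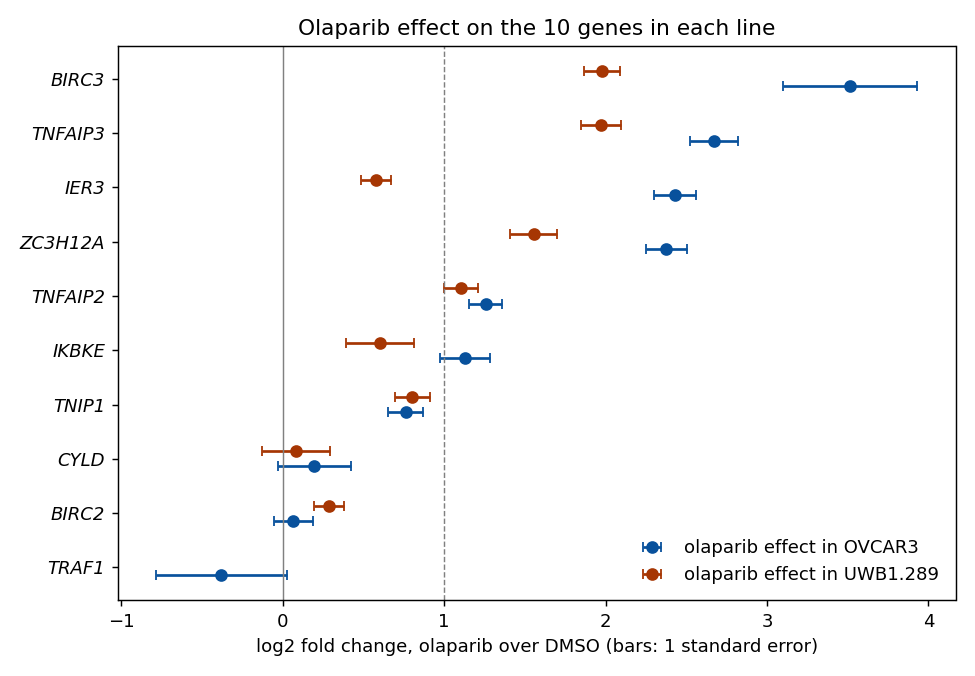
Log2 fold change of olaparib over DMSO (horizontal axis) for the 10 genes in OVCAR3 (blue) and UWB1.289 (brown), with bars of 1 standard error and a dashed line at 2-fold. BIRC3, TNFAIP3, IER3 and ZC3H12A lie farther right in OVCAR3 than in UWB1.289, TNFAIP2 and TNIP1 lie close together in both lines, and TRAF1 has a point for OVCAR3 only.

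Across the members, the fold ranged from 1.06 for CYLD to 3.94 for BIRC3 in UWB1.289 and from 0.768 for TRAF1 to 11.4 for BIRC3 in OVCAR3. The effect in UWB1.289 minus that in OVCAR3 was -1.53 (SE 0.398) for BIRC3, -0.82 (SE 0.203) for ZC3H12A, -0.70 (SE 0.198) for TNFAIP3 and -0.53 (SE 0.259) for IKBKE on the log2 scale. It was -0.15 (SE 0.153) for TNFAIP2, -0.11 (SE 0.319) for CYLD and 0.22 (SE 0.149) for BIRC2, each within about 1.5 standard errors of 0. For TRAF1 it was 1.65 (SE 0.626), on few counts. These differences contain the contrast on which members were chosen and carry no test.

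The second comparison was between the lines without drug, and it too shares the OVCAR3 controls. BIRC3 was the member that differed most, with 31.1 ± 3.99 CPM in UWB1.289 and 0.463 ± 0.314 CPM in OVCAR3 (SD, n = 4 each). The log2 difference was 5.995 (SE 0.272), and the gene passed the filter on low counts there through its UWB1.289 libraries. TNFAIP3 was 2.44-fold higher in UWB1.289 (SE of the log2 difference 0.171). ZC3H12A was higher by 0.86 (SE 0.168), BIRC2 by 0.83 (SE 0.10) and IER3 by 0.61 (SE 0.106) on the log2 scale, and none of these 4 genes had groups that overlapped. TNFAIP2 was lower in UWB1.289, by a log2 difference of -1.64 (SE 0.0794), at 72.2 ± 6.92 CPM against 224 ± 11.5 CPM (SD, n = 4 each). The groups overlapped for TNIP1, IKBKE, CYLD and TRAF1.

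The groups did not overlap for 5 members that were higher in UWB1.289, beside 34.5% of the 13366 genes tested, and for 1 that was lower, beside 34.9%. The limits of a call were passed by 2 members that were higher (BIRC3 and TNFAIP3), beside 18.7% of genes, and by 1 that was lower (TNFAIP2), beside 19.7%.

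**Figure D3:**
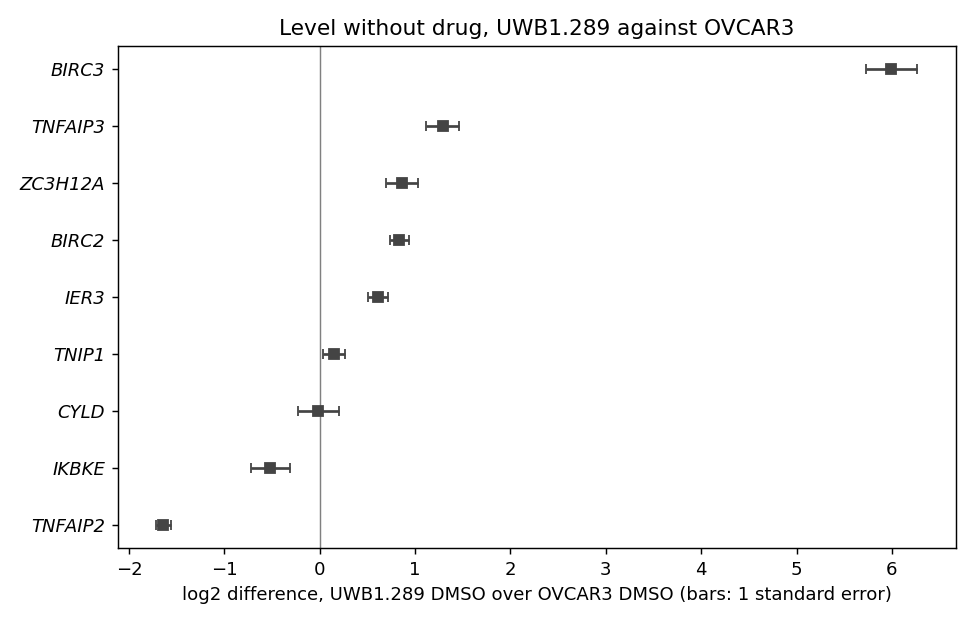
Log2 difference in level between UWB1.289 and OVCAR3 with DMSO (horizontal axis, positive where UWB1.289 was higher) for the 9 genes that passed the filter on low counts, with bars of 1 standard error. BIRC3 stands at 5.995, TNFAIP2 at -1.64, and the other 7 genes lie nearer to 0 than TNFAIP2.

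Other genes of the pathway were taken from 6 lists by role, 60 genes in all. In UWB1.289 51 of them were tested, with a median log2 fold change of 0.27. Of these, 3 were called up, beside 1.93% of all genes, and 19 had an adjusted p below 0.1 and were higher (edgeR), beside 7.77%, while 2 had an adjusted p below 0.1 and were lower, beside 6.10% of all genes. In OVCAR3 55 were tested, with a median of 0.32. There 9 were called up, beside 2.90% of all genes, and 29 were higher at an adjusted p below 0.1, beside 15.5%. At the same limit 3 were lower, beside 2083 of the 13031 genes tested. TNIP3 is among the 9 and the 29, and it had to differ, since it passed the filter on low counts through its olaparib libraries. edgeR called no list gene down by over 2-fold in either line, beside 0.282% of all genes in UWB1.289 and 2.33% in OVCAR3. These shares are so small that nothing is read from the absence of such calls. At an unadjusted p below 0.05, 3 were lower in UWB1.289 and 5 in OVCAR3, and the share of all genes at this limit is not given. DESeq2 also called 0 down in both lines.

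The NF-kB subunits and IkB proteins were the list with most changes. All 11 genes of this list were higher at an adjusted p below 0.1 in OVCAR3, beside 15.5% of all genes. In UWB1.289 9 of 11 were, beside 7.77%, and the fit with the replicate numbers as a block gave 11 of 11. With 1 library left out the count in OVCAR3 was 10 or 11. In UWB1.289 it was 8 without DMSO replicate 1, 2 or 3, and 5 without olaparib replicate 4, when BCL3, NFKB2, NFKBIE and REL no longer passed. RELB, a subunit of the non-canonical branch, rose by 1.496 (SE 0.144, adjusted p = 2.08e-07 in edgeR) in OVCAR3 and by 1.04 (SE 0.104, adjusted p = 2.41e-07 in edgeR) in UWB1.289 on the log2 scale. NFKBIZ, an atypical nuclear IkB protein, rose by 1.26 (SE 0.141) and 1.90 (SE 0.165). NFKBIA, which encodes IkB alpha and is itself a feedback inhibitor, rose by 1.15 (SE 0.0703) in OVCAR3 and by 0.98 (SE 0.0774) in UWB1.289, just under the 2-fold line.

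NFKBIE, NFKB2 and NFKBID were called in OVCAR3, with log2 fold changes of 1.80, 1.24 and 1.04. NFKBID fell below the 2-fold line without OVCAR3 DMSO replicate 3 (0.99) or without OVCAR3 olaparib replicate 4 (0.90). In UWB1.289 RELB did so without DMSO replicate 3 (0.99).

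Of the A20 partners and linear ubiquitin genes, TNIP3, a relative of TNIP1, was called in OVCAR3 with a log2 fold change of 4.06 (SE 0.425). It had 13 counts in all over the 4 control libraries, from 0 to 9 in each, and 57 to 63 counts with olaparib. It thus passed the filter on low counts through the treated libraries and had to differ, and no p-value is given for it. The fitted value moved to 5.23 without DMSO replicate 4 and to 3.63 without DMSO replicate 3. In UWB1.289 it had at most 3 counts in any library and was not tested. The rest of this list was under 2-fold in both lines. In OVCAR3 5 of 10 tested genes, TNIP3 included, were higher at an adjusted p below 0.1, beside 15.5% of all genes. In UWB1.289 1 of 9 was, the linear ubiquitin ligase subunit RBCK1, beside 7.77%. RBCK1 rose there by 0.36 (SE 0.0971, adjusted p = 0.0193 in edgeR) and was at -0.10 (SE 0.104, adjusted p = 0.518 in edgeR) in OVCAR3.

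Of the TNF receptors and adaptors, TNFRSF1B, which encodes TNF receptor 2, rose by 1.93 (SE 0.271, adjusted p = 2.43e-05 in edgeR) and MAP3K14, the kinase of the non-canonical branch that cIAP proteins keep low, by 1.30 (SE 0.235, adjusted p = 3.63e-04 in edgeR) on the log2 scale in OVCAR3. TRAF2 and TRAF3, the adaptors that join cIAP proteins to that kinase, rose in OVCAR3 by 0.77 and 0.79 and in UWB1.289 by 0.56 and 0.37. TNFRSF1A and TRAF6 fell in OVCAR3, with log2 fold changes of -0.38 and -0.62. MAP3K7 was lower in UWB1.289, at -0.28 (SE 0.0981, adjusted p = 0.0833 in edgeR). In OVCAR3 it was higher, at 0.25 (SE 0.0952, adjusted p = 0.0668 in edgeR). TRAF2, TRAF3, TNFRSF1A, TRAF6, MAP3K7, XIAP, RBCK1 and ZFP36L1 were named after their values were seen. Among the IKK complexes and adaptors, none of 6 tested genes had an adjusted p below 0.1 in edgeR in either line.

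Of the survival targets and other IAP genes, SOD2, a mitochondrial superoxide dismutase, was called in UWB1.289, with a log2 fold change of 1.02 (SE 0.129, adjusted p = 8.66e-06 in edgeR). It fell just below 2-fold without DMSO replicate 1 or 3 (0.97 and 0.99) or olaparib replicate 2 (0.88), and was at 0.86 (SE 0.124) in OVCAR3. In UWB1.289 4 of 8 tested genes of this list were higher at an adjusted p below 0.1, beside 7.77% of all genes. XIAP was lower there, with a log2 fold change of -0.22 (SE 0.0788, adjusted p = 0.0796 in edgeR), and was at -0.02 (SE 0.0753) in OVCAR3. Of the RNA decay relatives of ZC3H12A, 3 of 5 tested genes in UWB1.289 were higher at an adjusted p below 0.1, beside 7.77% of all genes. In OVCAR3 4 of 7 were, beside 15.5%, and each of these rises was under 2-fold. ZFP36L1 was lower in OVCAR3, with a log2 fold change of -0.25 (SE 0.0870, adjusted p = 0.0438 in edgeR). Without drug, 10 of 54 tested list genes were called higher in UWB1.289, beside 18.7% of all genes, and 7 lower, beside 19.7%, so neither share stood above that of all genes.

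**Figure D4:**
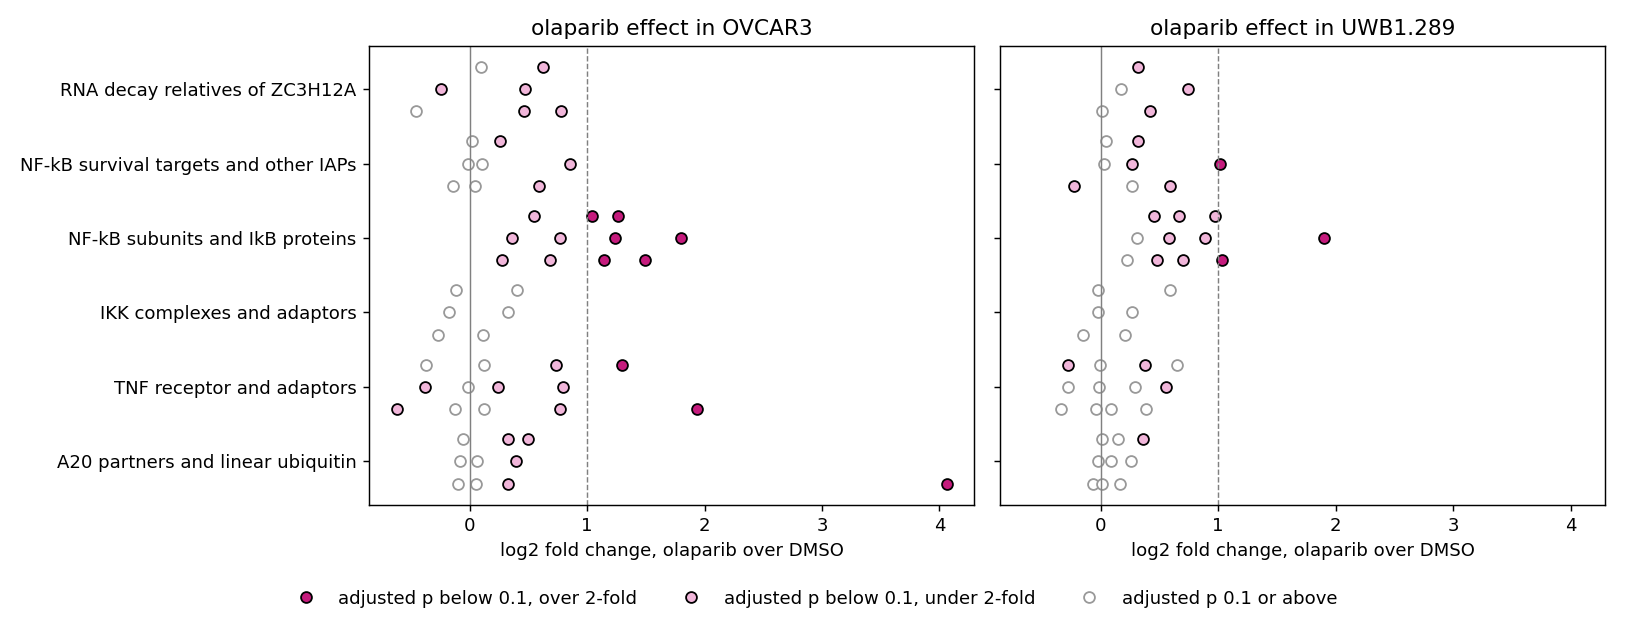
Log2 fold change of olaparib over DMSO (horizontal axis) for the tested genes of the 6 pathway lists in OVCAR3 (left, 55 genes) and UWB1.289 (right, 51 genes), with a dashed line at 2-fold; each point is a gene, filled dark where called. The called genes are 9 in OVCAR3 and 3 in UWB1.289, most of them NF-kB subunits and IkB proteins.

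The genes whose pattern over the 4 group means was most like that of TNFAIP3 were sought among 13233 genes, by the root mean square difference of mean log2 CPM after removal of each gene's own mean. They were ADAMTS9, at 0.154, TNFRSF9, at 0.234, and PI3, at 0.285. ADAMTS9 stood at 2.91, 25.0, 7.78 and 29.5 CPM and PI3 at 10.3, 68.6, 36.6 and 152 CPM in OVCAR3 with DMSO, OVCAR3 with olaparib, UWB1.289 with DMSO and UWB1.289 with olaparib. TNFRSF9 had 1 count in all in OVCAR3 with DMSO and a mean of 4.21 CPM in UWB1.289 with olaparib.

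For BIRC3 the nearest were LTB, at 0.292, CASC19, at 0.393, and INHBA, at 0.487. LTB stood at 2.46, 21.6, 116 and 289 CPM in the same order of groups. CASC19 had 1 count and INHBA 9 counts in all in OVCAR3 with DMSO. The likeness is over 4 group means and is a description.

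**Figure D5:**
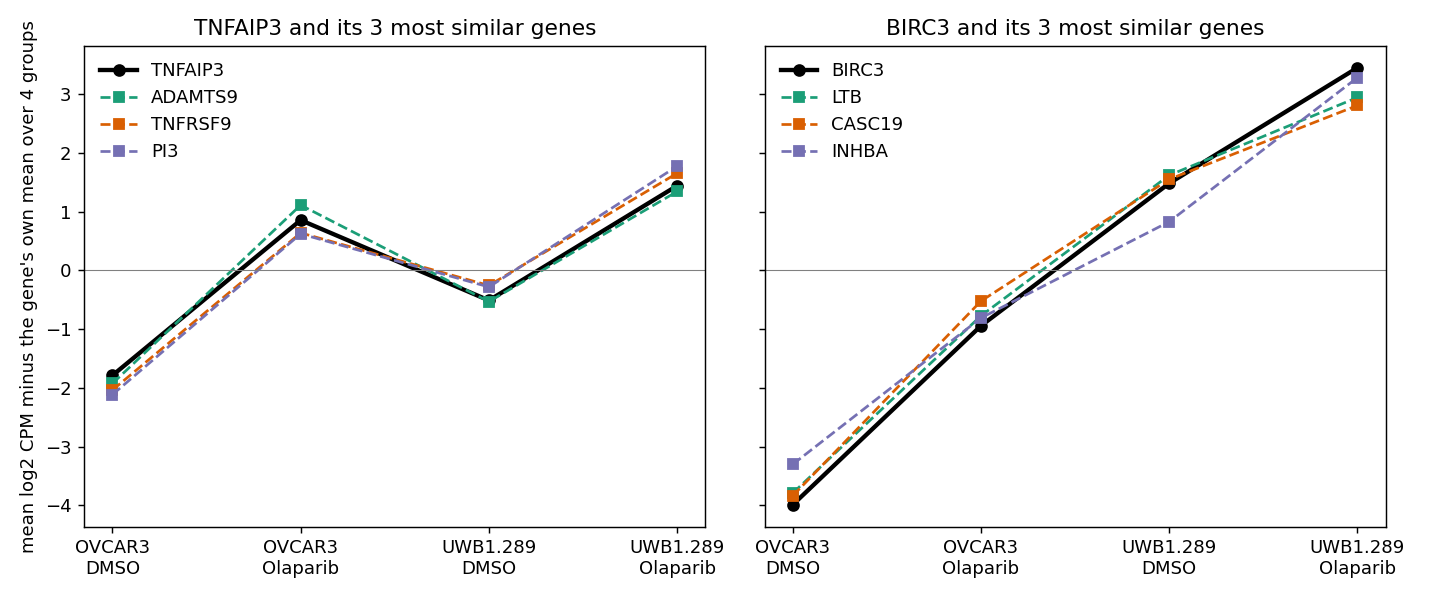
Mean log2 CPM of each group minus the gene's own mean over the 4 groups (vertical axis) for TNFAIP3 (left) and BIRC3 (right), drawn in black, with the 3 most similar genes as dashed lines. TNFAIP3 is higher in OVCAR3 with olaparib than in UWB1.289 with DMSO, while BIRC3 has these groups in the opposite order.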

How the data were processed

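RNA was measured in 16 libraries of OVCAR3 and UWB1.289 cells, 4 in each of 4 groups taken from the sample labels. The authors prepared QuantSeq 3' mRNA libraries, used BBDuk for read trimming, STAR for alignment to hg38 (2.7.9a in the submitters' processing notes) and featureCounts 2.0.0 for counting per gene with GENCODE release 38. The deposited values are raw whole-number counts, not normalized. The strand setting is not given in the sources used here. The members and gene lists were chosen with earlier results of these data known.

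The tests on counts used edgeR 4.0.16 under R 4.3.3 (TMM, filterByExpr, quasi-likelihood F test, Benjamini-Hochberg over all genes tested), in each line on its own, between the lines on the DMSO libraries, and as an interaction over all 16 libraries. A call needed an adjusted p below 0.1, over 2-fold and an average normalized count above 10. Each SE was derived from the F statistic as the size of the log2 fold change over root F. log2 CPM used 2 added counts. The genes named are the 10 members, the list genes called in an olaparib contrast (at most 5 per list and contrast), and the 3 patterns nearest to TNFAIP3 and to BIRC3. Other genes named were chosen after their values were seen. Alternatives were DESeq2 1.42.0, its size factors, keeping low-count genes, a stricter average count of 50, dropping the fold limit, a limit of 0.05 on the adjusted p, fitting all 16 libraries together, a replicate block, and leaving out each library. The scripts were tested on simulated data. Totals of 5599571 to 7730228 counts give a large counting error to a gene near 10 counts. Gene positions are from GENCODE release 44 on hg38.

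The replicate numbers in the labels were checked as pairs. After removal of group means, same-numbered libraries of the DMSO and olaparib groups correlated at 0.134 to 0.247 in UWB1.289 (9144 genes), all above 0.1, which meets the limit set for pairs. In OVCAR3 same-numbered libraries correlated at 0.0588 to 0.184 (9363 genes), which does not meet that limit. Libraries with different numbers correlated at -0.265 to 0.190 in UWB1.289 and at -0.230 to 0.157 in OVCAR3, so the ranges overlap. The p-values given are from fits without the block. A value with the block is given for BIRC2 and IKBKE, and where it changes a count or a call.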

Additional observations from a re-analysis of the deposited data

Results flagged for a closer look

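A library stood apart from the other 3 of its group in 2 of the 40 sets of 4 libraries looked at (10 genes in 4 groups), by a gap to its neighbour of more than 0.83 of the group's range on the log2 CPM scale. Chance gives this in about 1 group in 20. BIRC3 in OVCAR3 DMSO replicate 1, which had 0 counts, was at -1.70, beside -0.18 to 0.01 in the other 3 libraries. Without that library the log2 fold change of BIRC3 in OVCAR3 was 3.14, beside 3.51 with all libraries. TRAF1 in UWB1.289 DMSO replicate 2, which had 1 count, was at -1.07, beside 0.51 to 0.70 in the other 3. Both are genes with at most 10 counts in the libraries of these groups.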

How the results depend on the processing

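The alternatives that change only a limit (average count, fold or adjusted p) reuse the main fit. Their log2 values are copies, and untested values stay the same there by construction. Of 936 log2 values, these included, 912 stayed on their side of the call limits or, for untested values, within the spread. A further 10 fell below the limits, 12 rose above them and 2 tested values turned. In all 15 values changed sign, the rest of them untested differences near 0 of CYLD and TNIP1 between the lines. The tested ones are CYLD in UWB1.289, at -0.0054 without DMSO replicate 3 and -0.11 without olaparib replicate 4, the lowest of values from -0.11 to 0.18 with 1 library left out. With no fold limit, members called up in UWB1.289 numbered 8 in place of 4, list genes up 19 and down 2 in UWB1.289, list genes up 29 and down 3 in OVCAR3, and without drug 5 members and 22 list genes were higher and 2 members and 17 list genes lower in UWB1.289. With an average count above 50, list genes called up in OVCAR3 numbered 5, since TNIP3, TNFRSF1B, MAP3K14 and NFKBIE average less, and those lower in UWB1.289 without drug 4. BIRC3 also lost its place in OVCAR3 there. With 1 library left out, list genes called up in UWB1.289 ranged from 1 to 4, with 1 (NFKBIZ) without DMSO replicate 3, and list genes called down in OVCAR3 from 0 to 1, with 1 (ZC3H12B) without olaparib replicate 4. TRAF1 passed the filter and was called in UWB1.289 without DMSO replicate 4 or olaparib replicate 1, 2 or 4, which takes the members called up to 5. It passed there through its olaparib libraries and had to differ, so nothing is read from these calls. With the replicate block, members called up were 4 in UWB1.289 and 6 in OVCAR3, and the block changed no call of a member. Between the lines without drug, the list gene ZC3H12C was called higher in UWB1.289 in the main fit and not with the block. Leaving out the libraries moved the NF-kB subunits and IkB proteins that were higher at an adjusted p below 0.1 from 11 to 10 in OVCAR3 at the lowest and from 9 to 5 in UWB1.289. In each line 3 of 4 libraries correlated best with their own number. DESeq2's size factors shifted the median of all genes by under 0.01 on the log2 scale. Depth limits TRAF1 in both lines and BIRC3 in OVCAR3.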
